A study of Mus musculus with 8 samples.

Results

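The comparison described here is that of mouse primary myotubes treated with interleukin 6 (IL6) against control myotubes. Its members are 4 of the 8 RNA-seq libraries of the study, the 2 labelled IL6 and the 2 labelled Control, and they were chosen by those labels alone. The labels name no vehicle for the controls. Myotubes are the multinucleated fibres that form when muscle precursor cells fuse in culture. The precursors came from the limb muscles of wild-type pups 2 to 3 days old and were differentiated in medium with 5% horse serum. IL6 was given at 250 ng/ml for 48 h, and both groups were harvested 72 h after differentiation. The remaining 4 libraries, 2 treated with leukaemia inhibitory factor (LIF) and 2 with oncostatin M (OSM) at the same dose and time, entered the statistical fit and serve as the points of comparison. The study concerns OSM signalling in cancer-associated muscle wasting. The labels do not say whether the 2 libraries of a group came from separate animals, litters or dishes, so the p-values measure only the spread between these samples, which may be technical.

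IL6 acts on a cell through 2 proteins, an IL6-binding receptor encoded by Il6ra and the shared signalling subunit gp130, encoded by Il6st. LIF and OSM use the same gp130 but pair it with the products of Lifr and Osmr. Bound receptors activate JAK kinases, which phosphorylate the transcription factor STAT3, and STAT3 in turn switches on genes such as Socs3, whose product shuts the signal off again. In skeletal muscle IL6 is known both as a factor released by working muscle and as a mediator of inflammatory wasting.

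No gene passed the main test, edgeR's quasi-likelihood test with Benjamini-Hochberg adjustment over 15603 genes (0 called, 0% of those tested, lowest adjusted p = 0.106). Without adjustment, 808 genes (5.18%) had a p under 0.05, of which 427 were higher with IL6 (2.74% of those tested) and 381 lower (2.44%). If no gene had changed, 780 would be expected at that cutoff, so the 808 are near that number. The DESeq2 Wald test on the same counts called 19 genes, 0.193% of the 9855 to which it gave an adjusted p, and 472 genes had an unadjusted p under 0.05 there. An edgeR fit with the replicate number as a block called 9 (0.0577%), all within the 19. Of the 19, 18 were higher with IL6 and 1 was lower. All 19 had both IL6 libraries beyond both control libraries. The 19 were called on these same libraries, so this largely follows from the call and adds nothing to it. Over all tested genes the share was 14% in the higher direction and 14.1% in the lower. In what follows, a level is a TMM-scaled CPM (a count scaled to library size), a change is the log2 ratio of IL6 over control from the edgeR fit with its standard error (SE), and an interval is the 95% interval of that change.

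The libraries themselves set the limits of this comparison. Gene totals of the 4 libraries ran from 29513617 to 29761609 counts. IL6 replicate 1 stood apart from the other 7 libraries in several measures. It had the most genes with at least 1 count (21831, against 21358 to 21545 in the others) and the highest share of alignments in no annotated gene (7.15%, against 6.22% to 6.68%). The nuclear RNAs Neat1 and Kcnq1ot1 were also highest there, at 110 and 12.1 CPM, against 44.9 to 74.2 and 6.54 to 10.6 CPM in the others. On the second principal component, which held 12.9% of the variance, it lay at 21.96 and IL6 replicate 2 at −8.10. The 2 IL6 libraries differed by at least 2-fold at 22 of the genes averaging 100 counts or more, against 9 genes for the control pair, 0 for LIF and 2 for OSM. Without IL6 replicate 1 the edgeR test called 3 genes, and without IL6 replicate 2 it called 182, 99 higher and 83 lower. Without control replicate 2 it called 16, 5 higher and 11 lower, and without control replicate 1 it called 0. In each of these fits the group left with 1 library is assumed to vary like the other groups. What sets IL6 replicate 1 apart was not tested.

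**Figure D1:**
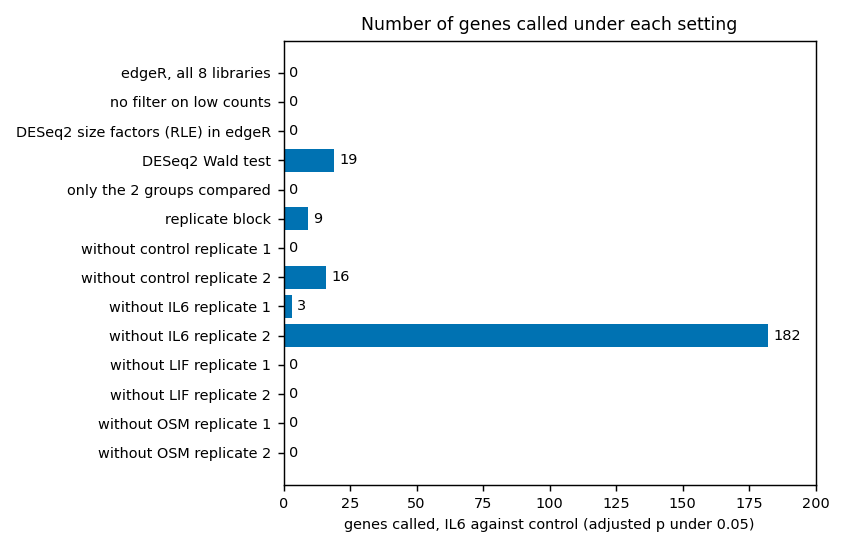
Number of genes called for IL6 against control (horizontal axis, adjusted p under 0.05) under each setting (vertical axis). The edgeR fit of all 8 libraries gave 0, DESeq2 gave 19, and the count ran from 0 to 182 when single libraries were left out.

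Among the 19 genes called with DESeq2, Lox (ENSMUSG00000024529), which encodes the collagen cross-linking enzyme lysyl oxidase, stood at 358 and 349.7 CPM in the control libraries and at 642 and 505 CPM in the IL6 libraries. Both IL6 libraries lay above both controls, and the change was 0.70 (SE 0.094), a 1.62-fold level with an interval of 1.41 to 1.87 (edgeR adjusted p = 0.106, DESeq2 adjusted p = 1.3e-09). Cp (ENSMUSG00000003617), the copper-carrying plasma protein ceruloplasmin, measured 61.2 and 70.0 CPM in control and 110.2 and 91.6 CPM with IL6. Its change was 0.62 (SE 0.093, edgeR adjusted p = 0.106). Lox, Ecm1 and Mt2 were the 3 genes that the edgeR test called without IL6 replicate 1, and 18 of the 19 were called without IL6 replicate 2.

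Il13ra1 (ENSMUSG00000017057), a receptor chain for the cytokine IL-13, had 113 and 126 CPM in control and 172 and 158 CPM with IL6. The groups did not overlap, and the change was 0.47 (SE 0.070, edgeR adjusted p = 0.106, DESeq2 adjusted p = 1.31e-05). Igfbp3, which binds insulin-like growth factors outside the cell, went from 129 and 131 CPM to 217 and 169 CPM, a change of 0.57 (SE 0.095, DESeq2 adjusted p = 1.16e-05). Sulf1, which trims heparan sulfate chains on the cell surface, was at 102 and 118 CPM in control and at 148 and 145 CPM with IL6. Ecm1, an extracellular matrix protein, was at 145 and 156 CPM against 181 and 206 CPM, and was the exception among the 18 higher genes in that IL6 replicate 2 exceeded replicate 1. In the other 17 the higher value was that of IL6 replicate 1.

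Larger changes were seen for Il33, Man1a and Sln. Il33, an alarm cytokine held in the nucleus, measured 9.40 and 9.70 CPM in control against 20.6 and 13.7 CPM with IL6, a change of 0.84 (SE 0.17) that was 0.52 without IL6 replicate 1 and 1.11 without replicate 2. Man1a, a mannosidase that trims N-glycans in the Golgi, had 29.3 and 27.8 CPM against 56.1 and 40.1 CPM. Sln encodes sarcolipin, a small inhibitor of the calcium pump of the sarcoplasmic reticulum, and had 3.81 and 5.57 CPM against 9.20 and 7.49 CPM, with a change of 0.83 (SE 0.19). The other genes called higher with DESeq2 were Cdh17, Gipr, Nos2, Timp3, Rnft1, Calcrl, Gbe1, Mt2 and AC161119.1, with changes of 0.34 to 0.87. AC161119.1 is an antisense RNA that shares 5.46% of its exon bases with Lox, and because the strand setting of the counting is not given, reads of the 2 cannot be told apart there. Timp3 overlaps Syn3 over 21.3% of its exon bases, with the same limit.

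Car3 (ENSMUSG00000027559), a carbonic anhydrase of slow muscle and fat, was the only gene of the 19 that was lower. It had 25.0 and 18.8 CPM in the control libraries and 11.2 and 12.2 CPM in the IL6 libraries. The change was −0.90 (SE 0.14, DESeq2 adjusted p = 9.73e-05), a 0.534-fold level with an interval of 0.432 to 0.662. It remained between −1.09 and −0.69 when any of the 4 libraries was left out.

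Set beside the other cytokines, the 18 higher genes had the same order. In all 18 the mean level was lowest in control, followed by IL6, LIF and OSM. The step from control to IL6 follows from how these genes were chosen. The changes of the 3 cytokines share the control libraries, so their order is a description. The share of all tested genes with this order was not counted. In the direct test of IL6 against LIF, where 2.76% of all genes were called, 10 of the 19 genes were called, and in that of IL6 against OSM, where 15.6% were called, 16 were. Lox, for example, was at 728 and 791 CPM with LIF and at 1193 and 1144 CPM with OSM. Its IL6 level was below that of LIF with a log2 difference of −0.41 (SE 0.093, edgeR adjusted p = 0.0415) and below that of OSM with a log2 difference of −1.03 (SE 0.093, edgeR adjusted p = 1.08e-05). Sln did not pass against LIF (log2 difference −0.19, SE 0.17, edgeR adjusted p = 0.689) or OSM (−0.33, SE 0.17, adjusted p = 0.216), and neither did Gbe1. Car3 did not follow this order: its lowest level, 3.80 and 5.19 CPM, was with LIF. The OSM libraries, at 14.7 and 14.3 CPM, lay above both IL6 libraries, a difference that did not pass the test (log2 difference of IL6 from OSM −0.31, SE 0.15, edgeR adjusted p = 0.198).

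**Figure D2:**
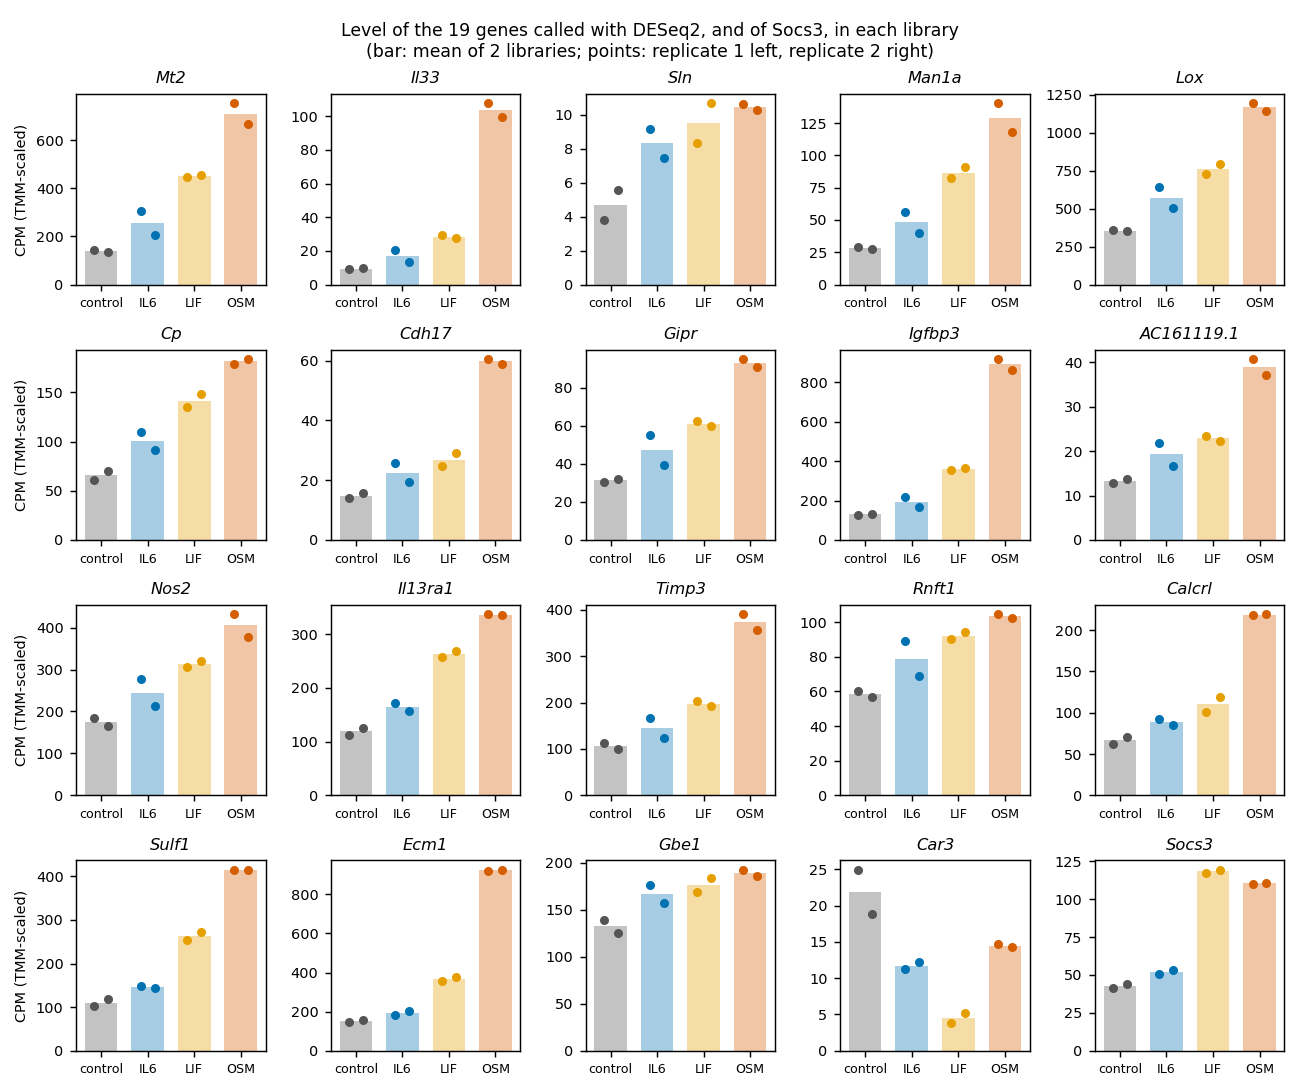
Level in TMM-scaled CPM (vertical axes, starting at 0) of the 19 genes called with DESeq2 and of Socs3 in each library, by group (horizontal axes). Bars are means of 2 libraries and points are the libraries, and in the 18 higher genes the IL6 bar stands between control and LIF.

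The intervals give the upper limits of the response. For 13041 genes, 83.6% of those tested, the 95% interval of the IL6 change lay within a 2-fold change in either direction, and for 10971, or 70.3%, within 1.5-fold. The shares differed with depth. Among 5656 genes averaging 1000 counts or more, 99.7% had an interval within 2-fold and 98.8% within 1.5-fold. Among 4271 genes under 100 counts the shares were 41.4% and 6.3%. In the class of 100 to 1000 counts, 31 genes had an interval reaching above a 2-fold increase and 15 an interval reaching below a 2-fold decrease, and over 1000 counts there were 10 and 6. These are intervals for each gene taken alone, with no adjustment for the number of genes. They use 1 spread shared by the 4 groups. The log2 SD between replicates was 0.24 in control and 0.263 in IL6, against 0.205 in LIF and 0.211 in OSM. The limits may therefore be somewhat too narrow for this comparison.

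**Figure D3:**
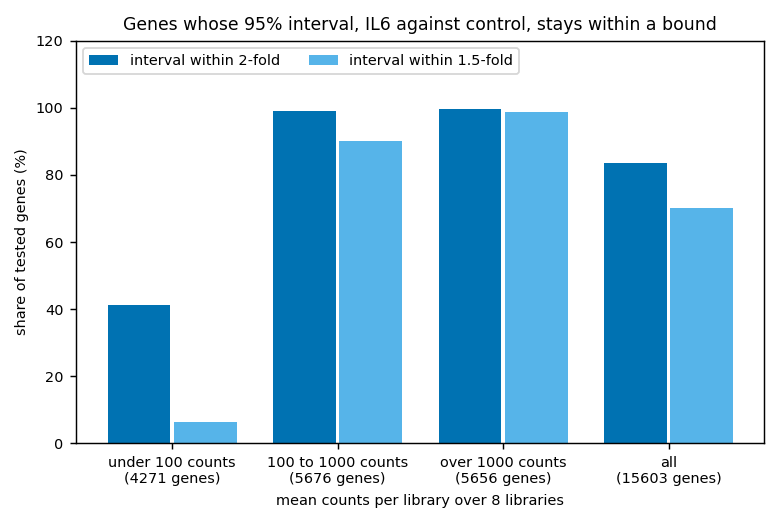
Share of tested genes (vertical axis, percent) whose 95% interval for IL6 against control stays within 2-fold (dark bars) or 1.5-fold (light bars), by mean counts per library (horizontal axis). Above 100 counts nearly all intervals are within 2-fold, while below 100 counts 41.4% are.

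The 10 highest and 10 lowest changes were taken among protein-coding genes averaging 100 counts or more whose libraries did not overlap. Besides genes already named, the highest changes were in Gad1 (0.78), Ccbe1 (0.75), Cd53 (0.67) and Prl2c3 (0.67), with edgeR adjusted p-values from 0.774 to 0.943. For Prl2c3, 78.6% of 50-base stretches also occur in related genes, so its counts cannot be assigned to it with certainty. Below that depth, Wt1, a transcription factor of kidney and gonad development, had 0.824 and 0.604 CPM in control and 1.79 and 1.48 CPM with IL6. Its log2 difference was 1.19 with an interval of 0.52 to 1.87 (edgeR adjusted p = 0.734) on 24 and 18 counts in control and 54 and 44 with IL6. The lowest changes were in Col1a1 (−0.92), Car3, Adgrb2 (−0.62), Cyp2d22 (−0.62), Aldh3a1 (−0.62), Sptb (−0.60), Fgfbp1 (−0.58), Dmp1 (−0.58), Tagln (−0.58) and Cilp2 (−0.58). Of these 10, Car3 was called with DESeq2 and with a replicate block, and none was called in the main test. Without IL6 replicate 2, Adgrb2 (adjusted p = 0.018), Cilp2 (adjusted p = 0.0118) and Cyp2d22 (adjusted p = 0.0489) were called lower with edgeR, and Cd53 and Ccbe1 higher. Col1a1, a fibril collagen chain, had 309 and 169 CPM in control and 92.2 and 161 CPM with IL6, so each pair of libraries differed widely, and its interval ran from −2.12 to 0.28.

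The receptor genes come first in the pathway. Per kilobase of exon in GENCODE M21, Il6st stood at 51.1 CPM in control, Lifr at 8.63, Osmr at 5.50 and Il6ra at 0.597. Il6ra (ENSMUSG00000027947) had 153 and 151 counts in the control libraries and 175 and 146 with IL6, or 5.25 and 5.07 CPM against 5.79 and 4.92 CPM. The groups overlapped, and the interval of the change was 0.826-fold to 1.31-fold (edgeR adjusted p = 0.987). Il6st had 613 and 522 CPM in control and 531 and 549 CPM with IL6, an interval of 0.853-fold to 1.06-fold. Osmr was the subunit with the largest change, from 65.1 and 68.2 CPM to 86.9 and 74.3 CPM, or 0.27 (SE 0.083, edgeR adjusted p = 0.936). The change in Lifr was 0.088 (SE 0.093). The direction of Il6ra, Il6st and Lifr turned when single libraries were left out.

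Of 16 receptor, ligand and receptor-shedding protease genes listed, 14 were tested, 9 higher with IL6 and 5 lower. In the main test 0 were called, and the median change was 0.067, beside 0.00056 over all tested genes. Without IL6 replicate 1 that median was −0.053. All 14 intervals lay within 2-fold, and 9 within 1.5-fold. Both IL6 libraries lay above both controls for 2 members and below for 3, where the shares over all genes were 14% and 14.1%. The ligand genes Il6 and Lif had 30 and 39 and 318 and 234 counts in control, and 30 and 44 and 394 and 227 counts with IL6. Against LIF, Osmr was lower with IL6 with a log2 difference of −0.40 (edgeR adjusted p = 0.0206), the only member called, where 1.73% of all genes were lower and 1.03% higher. Against OSM, 4 members were lower, where 8.09% of all genes were lower and 7.48% higher, and Il6ra was among them (log2 difference −0.95, edgeR adjusted p = 0.000298).

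The kinases and transcription factors that carry the signal were near their control levels. Stat3 had 171 and 171 CPM in control and 173 and 182 CPM with IL6, with an interval of 0.955-fold to 1.13-fold. Jak1 had 295 and 277 CPM against 297 and 300.3 CPM. Of 18 tested JAK, STAT, PIAS, phosphatase and adaptor genes, 12 were higher and 6 lower, 0 were called, and the median change was 0.024. Both IL6 libraries lay above both controls for 6 of them and below for 1, against 14% and 14.1% of all genes, and 17 intervals were within 1.5-fold. Against LIF 4 members were lower with IL6, where 1.73% of all genes were, and against OSM 9, where 8.09% were. Jak2 was among both, with a log2 difference of −0.48 (edgeR adjusted p = 0.00483) and −0.67 (edgeR adjusted p = 4.3e-05).

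Socs3 (ENSMUSG00000053113), the feedback inhibitor and the usual transcript readout of STAT3 activity, is shown with its promoter because of that role. The stretch below is RefSeq's, build GRCm38.p6, minus strand, chr11:117969317-117969616, from 250 bases before the transcription start to 50 after it. Capitals mark the match to the STAT motif TTCNNNGAA, searched on both strands.
Socs3: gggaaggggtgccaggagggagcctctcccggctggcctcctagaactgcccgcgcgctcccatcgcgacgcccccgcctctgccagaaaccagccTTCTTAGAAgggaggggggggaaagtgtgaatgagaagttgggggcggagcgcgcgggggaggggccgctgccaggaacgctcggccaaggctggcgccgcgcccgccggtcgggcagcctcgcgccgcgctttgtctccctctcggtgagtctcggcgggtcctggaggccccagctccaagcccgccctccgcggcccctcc
There was 1 match, starting at position −154 from the start site. The motif occurs in 8.3% of the 32851 promoters in the table. Of the 19 genes called with DESeq2, 10 have a promoter there, and 0 of those 10 hold the motif in this window. These counts describe letters in a short window and say nothing of binding.

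In the control libraries Socs3 measured 41.6 and 44.2 CPM, and in the IL6 libraries 50.6 and 53.3 CPM. Both IL6 values were above both controls, but the change of 0.28 (SE 0.066) did not pass (edgeR adjusted p = 0.611, DESeq2 adjusted p = 0.233). The interval was 0.14 to 0.42 on the log2 scale. LIF libraries were at 117 and 119.6 CPM and OSM libraries at 110.2 and 111 CPM. IL6 was lower than LIF with a log2 difference of −1.19 (SE 0.063, edgeR adjusted p = 4.37e-07) and lower than OSM with a log2 difference of −1.09 (SE 0.063, edgeR adjusted p = 1.27e-07).

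Of 20 STAT3 target genes 19 were tested, 11 higher and 8 lower, with 0 called in the main test and a median of 0.027. Both IL6 libraries exceeded both controls for 5, namely Socs3, Il4ra, Timp1, Hif1a and Bcl3, and 0 lay below, against 14% and 14.1% of all genes. Il4ra, a receptor chain for IL-4 and IL-13, had 62.8 and 73.6 CPM in control against 83.4 and 76.6 CPM with IL6. Timp1, an inhibitor of matrix metalloproteinases, had 75.8 and 66.0 CPM against 84.3 and 78.8 CPM. Hif1a, the hypoxia-responsive factor, had 266 and 258 CPM against 310.3 and 291 CPM. All 19 intervals were within 2-fold, and among members with at least 100 counts the highest upper bound was 0.60, for Cebpd. Compared with LIF, 6 members were lower and 1 was higher with IL6, where 1.73% and 1.03% of all genes were. The higher one was Ccnd1, the gene of cyclin D1, by 0.87 (edgeR adjusted p = 0.000116). Ccnd1 overlaps another gene over 23.4% of its exon bases. Compared with OSM, 8 were lower and 1 higher, beside 8.09% and 7.48% of all genes.

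**Figure D4:**
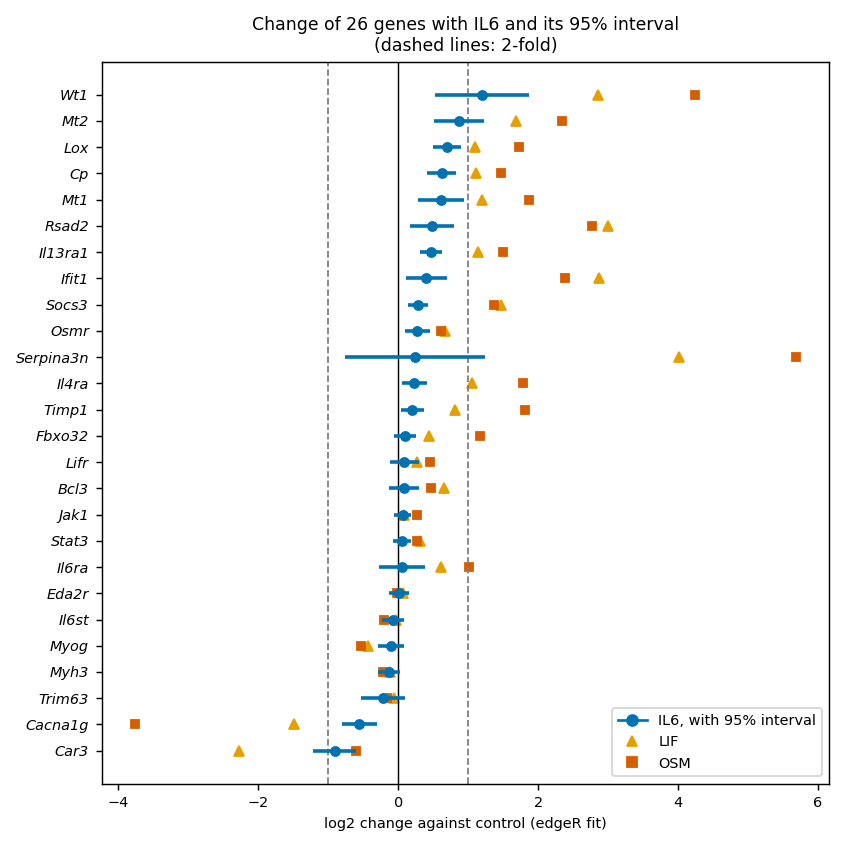
Change with IL6 against control on the log2 scale (horizontal axis) and its 95% interval for 26 genes, with the changes for LIF and OSM against the same controls. Dashed lines mark a 2-fold change, and the Socs3 interval ends at 0.42 while the LIF and OSM points lie at 1.47 and 1.37.

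Acute-phase and complement genes, which IL6 is best known for inducing in liver, were mostly sparsely expressed. Of 20 listed 11 were tested, 8 higher and 3 lower, with 0 called in the main test and a median of 0.49. Both IL6 libraries lay above both controls for 6 of the 11 and below for 1, beside 14% and 14.1% of all genes. Cp, given above, was among the 6. It was called with DESeq2 (adjusted p = 3.06e-06) and by edgeR with the replicate block (adjusted p = 0.0308). Only 5 had a mean of at least 100 counts, and 3 intervals were within 2-fold. Leaving out single libraries moved the median between 0.066 and 0.72. C3, the central complement protein, had 4.67 and 4.30 CPM in control and 6.02 and 6.04 CPM with IL6, a change of 0.43 (SE 0.16, edgeR adjusted p = 0.936). Serpina3n, a serine protease inhibitor, had 0.721 and 1.44 CPM in control and 0.695 and 1.89 CPM with IL6. The groups overlapped, and the interval ran from −0.76 to 1.24. LIF libraries had 16.5 and 18.7 CPM and OSM libraries 53.7 and 58.8 CPM, so IL6 was lower than LIF with a log2 difference of −3.77 (edgeR adjusted p = 2.58e-05). Lbp, which binds bacterial lipopolysaccharide, was lower, at 10.7 and 15.9 CPM with IL6 against 14.7 and 22.4 CPM, and the libraries overlapped.

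The metallothionein genes Mt1 and Mt2, neighbours that encode metal-binding proteins, lay above control together. Their promoters are shown for that reason, as RefSeq sequence of build GRCm38.p6 on the plus strand, at chr8:94178839-94179138 for Mt1 and chr8:94172368-94172667 for Mt2. Capitals mark metal response element cores, searched as TGCACNC or TGCGCNC on both strands, overlapping matches included.
Mt1: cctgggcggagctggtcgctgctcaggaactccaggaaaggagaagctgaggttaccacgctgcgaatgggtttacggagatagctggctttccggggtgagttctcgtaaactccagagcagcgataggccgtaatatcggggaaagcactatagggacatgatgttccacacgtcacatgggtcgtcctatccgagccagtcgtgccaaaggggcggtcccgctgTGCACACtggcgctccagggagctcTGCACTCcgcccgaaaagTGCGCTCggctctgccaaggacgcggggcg
Mt2: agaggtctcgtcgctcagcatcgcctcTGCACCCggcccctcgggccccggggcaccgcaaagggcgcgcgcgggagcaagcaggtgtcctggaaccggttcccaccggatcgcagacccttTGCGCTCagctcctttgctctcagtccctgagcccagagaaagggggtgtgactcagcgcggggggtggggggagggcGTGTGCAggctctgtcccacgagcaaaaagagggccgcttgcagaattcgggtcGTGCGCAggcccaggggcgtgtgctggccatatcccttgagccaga
Mt1 held 3 matches and Mt2 held 4. Among the other genes called with DESeq2 that have a promoter in the table, Igfbp3 held 4, and Calcrl, Il13ra1 and Man1a held 1 each. At least 1 match occurs in 25.7% of all promoters in the table, and 3 or more in 1.97%. No STAT motif match was found in either window.

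Mt2 (ENSMUSG00000031762) measured 144 and 137 CPM in control and 307 and 207 CPM with IL6. Its change of 0.87 (SE 0.16) did not pass with edgeR (adjusted p = 0.547) and passed with DESeq2 (adjusted p = 0.0219). An antisense gene, Gm45774, overlaps 73.5% of the Mt2 exon bases and had 34 to 56 counts in these 4 libraries. Because the strand setting of the counting is not given, reads of the 2 cannot be told apart there. Mt1 measured 150.1 and 149 CPM in control and 269 and 189 CPM with IL6, a change of 0.62 (SE 0.14, edgeR adjusted p = 0.805, DESeq2 adjusted p = 0.313). Without IL6 replicate 2 it was called with edgeR (adjusted p = 0.000173). For both genes IL6 replicate 1 was well above replicate 2. Slc39a1, a zinc importer, had 108 and 106 CPM against 117 and 127 CPM, and 21.8% of its 50-base stretches recur in a pseudogene. All 8 tested members of the metallothionein and zinc transporter list were above control in the fit, with a median of 0.076, and the median was 0.027 to 0.16 when single libraries were left out. For 3 of the 8 both IL6 libraries lay above both controls, beside 14% of all genes.

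Among 14 tested chemokine, cytokine and cytokine receptor genes, 10 were higher and 4 lower, with a median of 0.21 and 0 called in the main test. Both IL6 libraries exceeded both controls for 6, or 42.9%, against 14% of all genes. Il33 and Il13ra1, given above, were among them. Ccl5, a chemokine for T cells, had 1.30 and 1.14 CPM in control and 2.12 and 2.09 CPM with IL6, on 38 and 34 counts against 64 and 62. Cxcl1, which attracts neutrophils, had 11.8 and 8.43 CPM against 17.4 and 11.9 CPM, and its change of 0.53 was 0.24 without IL6 replicate 1. Csf1, a growth factor for macrophages, was at 63.0 and 65.5 CPM against 58.1 and 60.5 CPM.

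Interferon-induced genes did not share a direction. Rsad2, an antiviral enzyme, had 8.20 and 9.37 CPM in control and 12.1 and 12.4 CPM with IL6, and Ifit1, which binds viral RNA, had 9.20 and 9.77 CPM against 13.8 and 11.3 CPM. Both were far below their LIF levels, with a log2 difference of −2.52 (edgeR adjusted p = 3.37e-07) and −2.47 (edgeR adjusted p = 2.84e-07). Bst2, a membrane tether for virus particles, had 26.2 and 18.1 CPM in control and 12.5 and 17.7 CPM with IL6, so here IL6 was the lower group. Of 20 tested members 8 were higher and 12 lower, 0 were called, and the median of −0.18 moved between −0.39 and 0.22 as single libraries were left out. Control replicate 1 had the highest summed level of the list, 153 CPM, against 120 CPM in control replicate 2 and 117 and 125 CPM with IL6. Without control replicate 2, so with control replicate 1 as the only control, Irf9 was called lower (log2 change −0.82). With all libraries its change was −0.47 (edgeR adjusted p = 0.936).

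Genes of muscle protein breakdown gave narrow limits. Fbxo32, which encodes the ubiquitin ligase atrogin-1, had 55.3 and 62.8 CPM in control and 64.4 and 61.8 CPM with IL6. The groups overlapped, and the interval of the change was 0.959-fold to 1.19-fold. The OSM libraries had 137 and 129 CPM. IL6 was lower than LIF with a log2 difference of −0.34 (edgeR adjusted p = 0.0253) and lower than OSM with a log2 difference of −1.08 (edgeR adjusted p = 3.29e-07). Trim63, which encodes the ubiquitin ligase MuRF1, had 67.1 and 68.9 CPM against 47.6 and 69.4 CPM, an interval of 0.689-fold to 1.07-fold. Eda2r, a receptor of the tumour necrosis factor family, had 234 and 256 CPM against 236 and 257 CPM. Gabarapl1, an autophagosome protein, had 87.6 and 86.6 CPM against 67.2 and 82.5 CPM and overlaps another gene over 28.3% of its exon bases. Of 22 members tested, 9 were higher and 13 lower, with a median of −0.0095, 0 called in the main test and all 22 intervals within 1.5-fold. The direction of that median and of Trim63 and Eda2r turned when single libraries were left out. Without IL6 replicate 2 the change was −0.52 for Trim63 and −0.38 for Gabarapl1. Without IL6 replicate 1 it was 0.028 and −0.078.

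Contractile genes lay slightly and broadly below control. Of 35 tested members 31 were lower and 4 higher with IL6, and for 18, or 51.4%, both IL6 libraries lay below both controls, against 14.1% of all genes. The median change was −0.13, and it ranged from −0.19 to −0.077 when single libraries were left out. None was called in the main test, and 33 intervals were within 1.5-fold. Ckm, the muscle creatine kinase, had 133 and 102 CPM in control and 74.5 and 102 CPM with IL6, a change of −0.42 (SE 0.17, edgeR adjusted p = 0.936) that was −0.21 without IL6 replicate 1. Another gene overlaps 15.5% of its exon bases. Actc1, cardiac actin, had 2508 and 2369 CPM against 1725 and 2184 CPM. Acta1, skeletal actin, had 6196 and 5792 CPM against 4397 and 5681 CPM. Acta1 and Actc1 were called lower with edgeR without IL6 replicate 2 (adjusted p = 0.00595 and 0.0236). Embryonic myosin, Myh3, had 7888 and 7779 CPM against 6658 and 7659 CPM.

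In these genes IL6 replicate 1 was mostly the lower of the pair, as it was for 26 of 35 members. Myh7, slow myosin, had 1223 and 914 CPM in control and 822 and 899 CPM with IL6, and Myh2, a fast myosin, had 8.99 and 2.38 CPM against 1.19 and 2.56 CPM. Both were called lower only without control replicate 2. Myh7 and Myh2 share 28.2% and 28.9% of their 50-base stretches with other genes. Tnnc2, fast troponin C, had 859 and 707 CPM against 578 and 664 CPM, but 74.0% of its exon bases overlap Ube2c. Actn3, a Z-disc protein, was among the few above control, at 204 and 224 CPM against 229 and 218 CPM. The list was below the same controls with the other cytokines as well. Its median change was −0.145 with LIF and −0.195 with OSM, beside −0.129 with IL6. Against LIF, 4 members were lower with IL6 and 0 higher, where 1.73% and 1.03% of all genes were. Against OSM, 3 were lower and 1 higher, where 8.09% and 7.48% of all genes were. Des, the muscle intermediate filament desmin, was lower in both (with a log2 difference of −0.54, edgeR adjusted p = 0.000494, and −0.29, edgeR adjusted p = 0.00591). In bulk samples fewer myotubes and less of these transcripts per myotube cannot be told apart. The summed level of 10 myotube markers was 25083 and 24051 CPM in control and 20820 and 23580 CPM with IL6, and its part in these values was not tested.

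**Figure D5:**
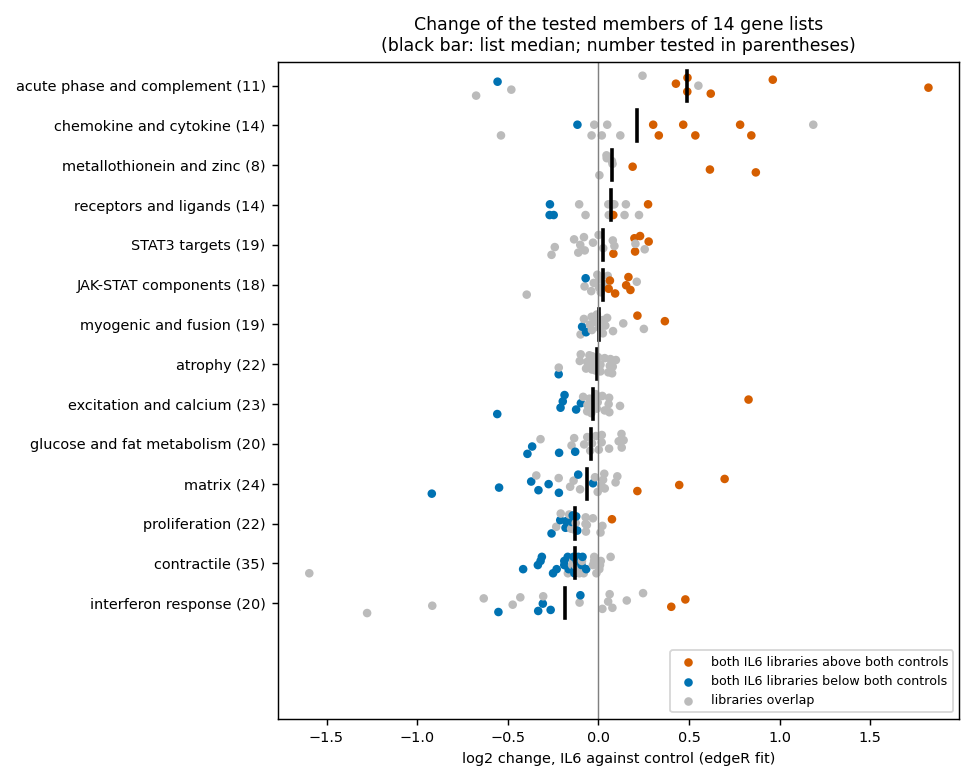
Change with IL6 against control on the log2 scale (horizontal axis) for each tested member of 14 gene lists (vertical axis), coloured by whether the IL6 libraries lie beyond both controls, with the list median as a black bar. The contractile and proliferation members cluster just below 0, with medians near −0.13, and the highest median is 0.49.

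Genes of excitation and calcium handling showed few departures. Cacna1g, a T-type calcium channel subunit, had 25.3 and 23.2 CPM in control and 14.5 and 18.4 CPM with IL6. Its change was −0.56 (SE 0.12, edgeR adjusted p = 0.521, DESeq2 adjusted p = 0.11), with an interval of 0.571-fold to 0.807-fold. LIF libraries had 9.05 and 8.17 CPM and OSM libraries 1.61 and 1.95 CPM, and IL6 was higher than LIF by 0.93 (edgeR adjusted p = 0.00233) and than OSM by 3.21 (edgeR adjusted p = 8.31e-08). Of 23 members tested, 7 were higher and 16 lower, 0 were called in the main test, and the median was −0.031. Both IL6 libraries lay above both controls for 1 member and below for 6, beside 14% and 14.1% of all genes. The member above was Sln, given earlier, which had the highest change of the list (0.83) and was called with DESeq2 (adjusted p = 0.0474). Cacna1g was called lower with edgeR without IL6 replicate 2 (adjusted p = 0.0117). The list median was −0.064 to −0.031 without single libraries.

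The myogenic regulators were near control. Myog, which drives terminal differentiation, had 1253 and 1014 CPM in control and 1044 and 1073 CPM with IL6, with overlapping groups and an interval of 0.821-fold to 1.06-fold. Mymx, a small protein needed for myoblast fusion, had 87.2 and 88.3 CPM against 110.5 and 93.3 CPM. Id2, an inhibitor of myogenic factors, had 39.6 and 33.9 CPM against 53.9 and 40.8 CPM, and its change of 0.37 (SE 0.13, edgeR adjusted p = 0.936) was 0.15 without IL6 replicate 1. Of 19 tested members 10 were higher and 9 lower, 0 were called, and the median was 0.0045. Without IL6 replicate 2 the median was −0.027, and Id2 and Mymx were called higher with edgeR (adjusted p = 0.0349 and 0.0282).

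Proliferation genes lay slightly below control with IL6 and well above their OSM levels. With IL6, 19 of 22 members were lower than control and 3 higher, with a median of −0.13, 0 called and all 22 intervals within 1.5-fold. Both IL6 libraries lay below both controls for 8, beside 14.1% of all genes. Mki67, a marker of cycling cells, had 260.2 and 301 CPM in control, 244 and 252 CPM with IL6, 195 and 184 CPM with LIF and 62.6 and 75.6 CPM with OSM. In the direct tests IL6 was higher than OSM for all 22 members, where 7.48% of all genes were, and higher than LIF for 8, where 1.03% were, Mki67 among both (by 1.84, edgeR adjusted p = 7.78e-08, and 0.39, edgeR adjusted p = 0.0366). Bub1b, a mitotic checkpoint kinase, had 53.3 and 62.2 CPM in control and 46.5 and 50.05 CPM with IL6. Without single libraries the list median was −0.17 to −0.028.

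Matrix genes went both ways. Of 24 tested, 9 were higher and 15 lower, with a median of −0.065, 0 called in the main test, and both IL6 libraries above both controls for 3 and below for 8, or 12.5% and 33.3%, beside 14% and 14.1% of all genes. Lox and Timp3, an inhibitor of metalloproteinases, were higher in both IL6 libraries, Timp3 at 113 and 99.6 CPM in control and 166 and 123 CPM with IL6. Postn, the matrix protein periostin, had 17.3 and 16.0 CPM in control and 10.1 and 12.7 CPM with IL6, a change of −0.55 (SE 0.12, edgeR adjusted p = 0.555). Without IL6 replicate 2 it was called lower with edgeR (adjusted p = 0.016). Postn was still lower with OSM, where the direct test passed (log2 difference 1.17, edgeR adjusted p = 7.84e-05).

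Genes of glucose and fat metabolism, processes that IL6 from working muscle is known to influence, gave 8 higher and 12 lower of 20. Their median was −0.040, and 0 were called in the main test. Slc2a4, the insulin-responsive glucose transporter, had 20.5 and 21.2 CPM in control and 13.1 and 18.8 CPM with IL6, a change of −0.39 (SE 0.13, edgeR adjusted p = 0.936). The Slc2a4 change was −0.15 without IL6 replicate 1 and −0.67 without IL6 replicate 2. Slc2a1, the basal glucose transporter, had 571 and 488 CPM against 603 and 554 CPM. The sign of the list median turned when single libraries were left out. Between IL6 and LIF 0 members were higher and 0 lower.

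Markers of the cells in culture bear on the label. All 10 myotube markers were tested and abundant. Of 10 macrophage markers 8 were too low to test, and the summed level of the list was 2.68 and 2.92 CPM in control and 4.53 and 3.24 CPM with IL6. The 8 endothelial markers summed to 5.08 and 5.54 CPM against 6.02 and 4.99 CPM, and the 5 adipocyte markers to 0.412 and 0.571 CPM against 0.794 and 0.304 CPM. The 8 listed fibroblast markers summed to 592 and 461 CPM in control and 392 and 463 CPM with IL6. Col1a1 and Tcf4 were the most abundant members in control. Lum was at 0 in all 8 libraries, and Thy1 was at 0 in the control and IL6 libraries. This sum alone does not show that fibroblasts were in the culture. The 7 smooth muscle and pericyte markers summed to 615 and 736 CPM against 584 and 653 CPM. Only 5 of them were tested. Myh11 had 5 and 5 counts in control and 4 and 7 with IL6, and Kcnj8 had 0 and 2 against 3 and 3. The 6 Schwann cell markers, 3 of them tested, summed to 159 and 173 CPM against 164 and 178 CPM. Neither sum alone shows that such cells were in the culture. The 7 myoblast markers summed to 1309 and 1272 CPM against 1355 and 1327 CPM. Of these lists 0 members were called for IL6 against control in the main test. The part of other cells in the results above was not tested.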

How the data were processed

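RNA was measured in 8 libraries made with a stranded mRNA kit, 2 for each of control, IL6, LIF and OSM. The authors deposited 1 table of raw counts by Ensembl gene for every library, without pooling. The submitters' processing notes name Trim Galore 0.6.5, STAR 2.7.3a, HTSeq 0.11.1 and DESeq2 1.34.0 and the build GRCm39, with no settings. The strand setting and annotation release are not given in the sources used here. Lines for reads in no gene, in several genes or aligned to several places (11.7% to 12.7% of alignments) entered neither library sizes nor tests.

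Of 53647 gene identifiers, 52093 were given a symbol from GENCODE M21 (GRCm38), so no gene coordinates are given beyond RefSeq promoters on GRCm38.p6. In R 4.3.3, edgeR 4.0.16 was used: filterByExpr at a minimum count of 10 (15603 genes), TMM scaling, and a robust quasi-likelihood fit of 4 group means to all 8 libraries with 4 residual degrees of freedom. P-values were adjusted by Benjamini and Hochberg over all tested genes and called at 0.05. DESeq2 1.42.0 was the alternative test. Intervals use the fit's standard error and moderated degrees of freedom. Counting error alone is 10% at 100 counts. Other settings tried were no filter, median-of-ratios scaling, the 2 compared groups alone, a replicate block, and leaving out each library.

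Named genes are the 10 highest and 10 lowest changes among protein-coding genes averaging 100 counts or more with libraries that do not overlap, every gene called with edgeR, DESeq2 or the block, each list's lowest p in either direction, and a fixed set, 83 in all. A further 12 (C3, Ckm, Actc1, Myh7, Myh2, Id2, Mki67, Hif1a, Slc39a1, Ccl5, Cxcl1 and Irf9) were chosen after their values were seen. The comparison, the lists and the fixed set were chosen with earlier results of these data known, so lists are described by counts and medians without a test. Over 10% of exon bases lay in another gene for 9 of these 95, and over 10% of 50-base stretches recurred elsewhere for 15.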

Additional observations from a re-analysis of the deposited data

How the results depend on the processing

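The count of 0 genes called for IL6 against control held without a filter, with median-of-ratios scaling and when LIF and OSM were left out of the fit. It became 19 with DESeq2 and 9 with a replicate block, all 9 among the 19. Leaving out single libraries gave 0 to 182. IL6 against LIF gave 431 called genes, 832 with the replicate block and 79 to 724 without single libraries (79 and 94 without LIF replicates 1 and 2, 237 and 238 without OSM replicates 1 and 2, 724 without IL6 replicate 2). IL6 against OSM gave 2429, and 1111 to 2684 without single libraries (1111 and 1339 without OSM replicates 1 and 2). The replicate numbers are not tied to animals or dates by the labels. The replicate differences of control and IL6 correlated at 0.181 across genes, and those of the other pairs of groups at 0.00708 to 0.103. Whether libraries with the same replicate number share anything more was not tested. The count of intervals within 2-fold was 13041, and 12247 to 12945 without single libraries.

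Medians of 12 lists kept within the spread between replicates under each setting that used all libraries. The JAK-STAT median was 0.0098 without a filter. The excitation and calcium median was −0.030 without a filter, −0.033 with median-of-ratios scaling, −0.033 with DESeq2, −0.028 with 2 groups and −0.030 with the replicate block, against a spread of 0.0013. Without single libraries the medians ran from −0.053 to 0.067 for receptors and ligands, 0.0014 to 0.046 for JAK-STAT components, 0.026 to 0.11 for STAT3 targets, 0.066 to 0.72 for acute phase, 0.027 to 0.16 for metallothioneins, −0.058 to 0.024 for atrophy, −0.19 to −0.077 for contractile, −0.027 to 0.024 for myogenic, −0.064 to −0.031 for excitation, −0.39 to 0.22 for interferon, −0.17 to −0.028 for proliferation, −0.092 to −0.014 for matrix, 0.20 to 0.35 for chemokines and −0.10 to 0.027 for metabolism. Of 474 values of named genes under settings with all libraries, 0 turned direction and 28 were newly called. Without single libraries 12 genes turned: Des (−0.040 to 0.055), Eda2r (−0.053 to 0.079), Erbb3 (−0.021 to 0.10), Fabp4 (−0.48 to 0.40), Il6ra (−0.067 to 0.16), Il6st (−0.18 to 0.050), Lifr (−0.064 to 0.26), Myog (−0.24 to 0.062), Pecam1 (−0.79 to 0.22), Serpina3n (−0.64 to 0.83), Trim63 (−0.52 to 0.028) and Vcam1 (−0.42 to 0.025). Depth limits genes under 100 counts most. The cause of these changes was not tested.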
